A study of Mus musculus with 3 samples.

Results

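Cholecystokinin (CCK), galanin, vasoactive intestinal peptide (VIP) and pituitary adenylate cyclase-activating polypeptide (PACAP) are neuropeptide systems whose genes are transcribed in the brain. The 9 genes described here were chosen by symbol in the array annotation. They comprise 4 ligand genes (Cck, Gal, Vip and Adcyap1, which encodes PACAP) and 5 receptor genes (Cckbr, Galr1, Vipr1, Vipr2 and Adcyap1r1), out of 19504 genes measured. Each of the 9 genes had 1 probe set, so no choice between probe sets was needed.

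The study asked whether extracellular vesicles (EVs), small membrane-bound particles, from the serum of running mice alter anxiety and hippocampal gene expression in stressed mice. All mice were 11-week-old male C57BL/6J mice. The non-restrained vehicle-injected group (NV, 3 mice) received PBS into the cerebral ventricle, although the title of that sample speaks of vesicles. The restraint-stressed sedentary EV-injected group (RS, 4 mice) was restrained 6 h per day for 3 weeks and then received 20 μg of EVs from donors housed for 4 weeks without a wheel. The restraint-stressed exercise EV-injected group (RE, 4 mice) was restrained in the same way and received 20 μg of EVs from donors housed for 4 weeks with a running wheel. Tissue was taken 3 days after injection, hippocampal RNA was combined by group, and the 3 pools were run on 1 Affymetrix whole-transcript array each. The labels name ventral hippocampus in 1 field and hippocampus in another, and the methods name hippocampus. Restraint and the injected material both differ between RS and NV and cannot be told apart in that comparison.

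Values are log2 signals, so a difference of 1 is a 2-fold difference, which is the threshold used by the study and taken here. Because a group is represented by 1 pool on 1 array, no difference has a replicate check and no p-value is given, and the number of arrays limits the precision. In a pooled tissue, fewer cells of a type and less RNA per cell cannot be told apart. Signals were read against a background level of 6.01, which is the 95th percentile of the values of 1448 chemosensory receptor genes (olfactory, vomeronasal and taste) that hippocampal tissue is not known to use. Of these receptor genes, 11.0% still differed by 2-fold or more between RS and NV, 8.63% of them lower and 2.35% higher in RS, and 63.2% of them had a negative difference, with a median of -0.16. Genes at low signal thus leaned lower in RS. The pyramidal cell gene Neurod6 was above the background level in all pools, with log2 signals of 13.16 (NV), 15.61 (RS) and 15.28 (RE). So was the granule cell gene Prox1, with 9.82, 12.52 and 12.19 in the same order. Both were lowest in NV, where some other markers of these cells (Dsp, Tdo2, Lct and Pou3f1) were below that level. In RS minus NV, 7 of 10 granule cell markers and 4 of 12 pyramidal cell markers were higher by 2-fold or more, and 0 lower. Others differed little, among them Calb1 with -0.22, Plk5 with 0.01, Mpped1 with 0.09 and Grik4 with -0.20. Over all genes, the median difference was -0.01 for RS minus NV, -0.07 for RE minus RS and -0.06 for RE minus NV.

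Neuropeptides are cut from larger precursors, stored in dense core vesicles and released to act on G protein-coupled receptors. In the hippocampus CCK is made by a class of basket interneurons and by pyramidal cells, and VIP by interneurons that mainly contact other interneurons. CCK acts in the brain mainly through the CCK-B receptor (Cckbr), which couples mainly to Gq and phospholipase C. Galanin acts through Galr1, which couples to Gi and opens potassium channels. VIP and PACAP are related peptides that share the receptors encoded by Vipr1 and Vipr2, while the receptor encoded by Adcyap1r1 prefers PACAP, and all 3 raise cAMP through Gs. The CCK-B receptor and the PACAP receptor are both known from work on anxiety and stress.

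Cck and Cckbr had opposite signs in both comparisons with NV, with the clearest contrast between a ligand and its receptor. Their promoters are shown first. Both are RefSeq sequences of build GRCm38.p6 that run from 250 bases before to 50 bases after the start of the transcript, with capitals for the E-box CACGTG and for the core of the cAMP response element, TGACG, which reads CGTCA on the other strand. The Cck window lies at chr9:121495645-121495944 on the minus strand and the Cckbr window at chr7:105425481-105425780 on the plus strand.
Cck: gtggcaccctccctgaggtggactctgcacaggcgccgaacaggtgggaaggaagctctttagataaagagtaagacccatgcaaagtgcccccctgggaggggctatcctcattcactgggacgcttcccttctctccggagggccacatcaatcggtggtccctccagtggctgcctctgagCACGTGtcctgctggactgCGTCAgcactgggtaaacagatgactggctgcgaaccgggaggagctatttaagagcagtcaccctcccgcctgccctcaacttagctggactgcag
Cckbr: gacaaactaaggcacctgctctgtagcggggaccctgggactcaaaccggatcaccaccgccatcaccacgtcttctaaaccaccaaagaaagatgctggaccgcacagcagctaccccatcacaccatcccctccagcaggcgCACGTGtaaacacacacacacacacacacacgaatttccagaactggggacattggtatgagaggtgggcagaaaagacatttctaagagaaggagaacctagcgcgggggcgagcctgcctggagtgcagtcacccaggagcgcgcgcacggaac

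The E-box was found in both windows, 66 bases before the start in Cck and 106 bases before it in Cckbr, and in 7.15% of all 32851 promoter windows searched on both strands. TGACG was found in the windows of all 4 ligand genes but in 1 of the 4 receptor genes searched, Vipr1. Galr1 was not searched. Over all genes, 23.0% had TGACG in a window, and 20.8% of all windows held it. The other ligand sites are given with 12 bases on each side, because the cAMP response element is the sequence through which PACAP and VIP receptors can act on transcription. They lie at chr10:5639127-5639155 on the plus strand (Vip, 79 bases before the start), chr17:93198914-93198942 on the plus strand (Adcyap1, 91 bases before the first of its 2 annotated starts) and chr19:3414509-3414537 on the minus strand (Gal, 19 bases after the start).
Vip: ggatcactactgTGACGtctttcggggag
Adcyap1: ggactaggatgcTGACGtcttttactgat
Gal: gcgctgagccggTGACGcggcagctccca
These motifs were chosen after the windows had been seen, a match is not evidence of a bound factor, and the ligands that hold the core did not all differ in the same direction between pools.

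Cckbr and Galr1 were the members that passed the 2-fold threshold, and both were lower in the restrained pools than in NV. Of the 9 genes, 2 were lower and 0 were higher in RS than in NV, where 4.29% of all genes were lower and 3.52% higher. Between RE and RS 0 of the 9 were higher and 0 lower, where 0.441% of all genes were higher and 0.723% lower. In RE compared with NV, again Cckbr and Galr1 were lower and 0 were higher, where 5.12% of all genes were lower and 2.87% higher. The comparisons with NV share that array, so the second is not independent of the first. Counting Cckbr and Galr1, 7 of 9 had a negative RS minus NV difference, with a median of -0.76 over the 9 genes, where 50.5% of all genes and 63.2% of the chemosensory receptor genes were negative. Of these 7, Gal was below the background level in every pool, and Galr1, Vipr2 and Adcyap1 were below it in RS and RE.

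**Figure D1:**
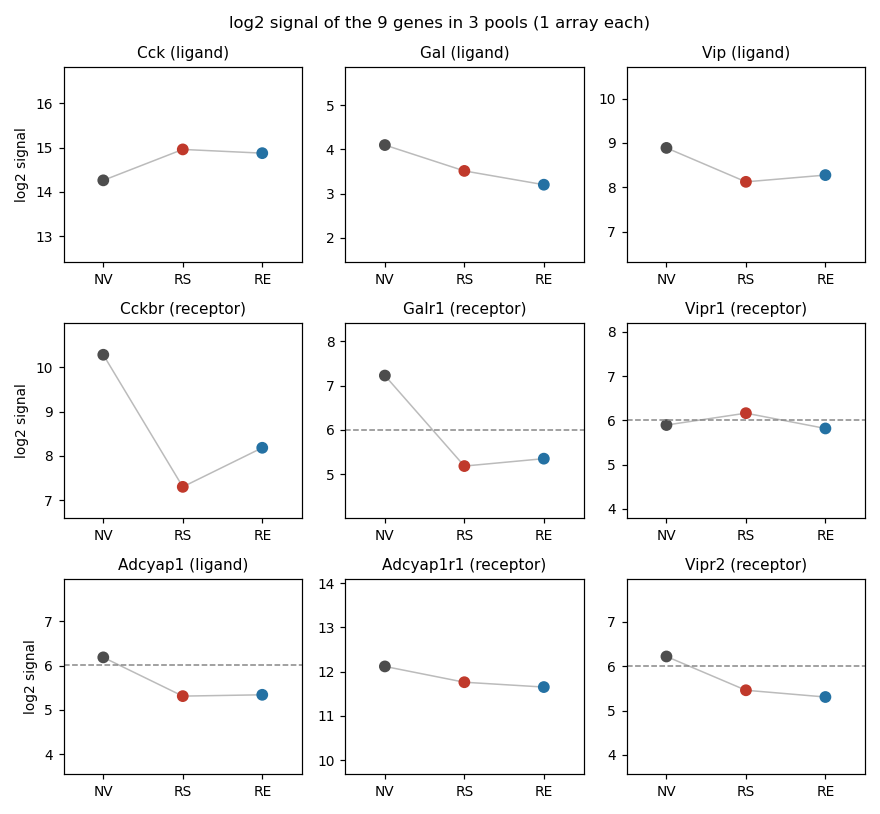
log2 signal (vertical axis, each panel spanning the same number of log2 units) of the 9 genes in the NV, RS and RE pools, 1 array each, with the background level of 6.01 as a dashed line where it falls in the panel. Cckbr drops from 10.28 in NV to 7.30 in RS, Cck is at its lowest in NV, and Galr1 is above the dashed line only in NV.

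In the CCK system the ligand and its receptor differed in opposite directions. The log2 signals of Cck, which encodes the CCK precursor, were 14.26 (NV), 14.96 (RS) and 14.87 (RE). Its restrained pools were both above NV, by 0.70 and 0.61, which is 1.62-fold and 1.53-fold and below the threshold. For Cckbr they were 10.28 (NV), 7.30 (RS) and 8.18 (RE), all above the background level. Cckbr was thus 7.91-fold lower in RS than in NV (log2 difference -2.98) and 4.29-fold lower in RE than in NV (-2.10). Among all genes, the RS minus NV difference of Cckbr held rank 12 from the most negative, and that of Cck rank 1725 from the most positive. The difference of Cck exceeded that of Cckbr by 3.68 on the log2 scale in RS minus NV and by 2.71 in RE minus NV.

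The exercise EV pool lay between the other pools for Cckbr. For this gene, RE minus RS was 0.88, or 1.84-fold, rank 157 from the most positive among all genes and below the 2-fold threshold. It spanned 29.6% of the log2 distance from RS back to NV, and RE remained nearer to RS than to NV. RE minus RS and that distance share the single RS array, so they are not independent. RE also lay between the other pools for Cck (12.1% of the distance) and Vip (19.9%). Galr1 and Adcyap1 had that order too, with RS and RE in the background range, and Gal, Vipr1, Vipr2 and Adcyap1r1 did not have it. Cck differed by -0.08 in RE minus RS (0.11 with the lowess trend on mean signal removed), so its RE and RS values were close to each other.

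In the galanin system only the receptor was measured above the background level. The NV, RS and RE pools had log2 signals of 7.23, 5.18 and 5.35 for Galr1, with the restrained pools below the background level. The measured differences from NV were -2.04 in RS and -1.88 in RE. Set against the background level of 6.01 in place of the dimmer value, Galr1 was at least 2.33-fold lower than NV in both restrained pools. That bound depends on the level chosen, and at the 99th percentile level of 6.94 it would be under 2-fold. Its RS and RE values, both in the background range, have no order. Gal, the galanin precursor, was measured at 4.10, 3.51 and 3.20 in the same order, below the background level throughout, so its differences of -0.58 and -0.90 from NV are between values that cannot be separated from unused genes.

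VIP and its receptors showed no 2-fold difference. For Vip the NV, RS and RE signals were 8.89, 8.12 and 8.27 on the log2 scale, above the background level in each. The restrained pools were 1.70-fold (-0.77) and 1.53-fold (-0.61) below NV, and RE was 0.15 above RS. Vipr1 gave 5.89, 6.16 and 5.82, all within 0.35 of each other and above the background level in RS alone. It was the only receptor with a positive RS minus NV difference (0.27), at a signal close to that level. Vipr2 gave 6.22, 5.46 and 5.30, above the background level in NV alone. Its measured RS minus NV difference was -0.76, with the RS value in the background range, so it was not ranked against that of Vip.

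In the PACAP system both genes were highest in NV by less than 2-fold. Adcyap1 gave log2 signals of 6.19 (NV), 5.31 (RS) and 5.34 (RE), so that NV alone was above the background level, by a small margin. The measured differences from NV were -0.87 in RS and -0.85 in RE, and against the background level NV was at least 1.13-fold higher than either. Adcyap1r1, the PACAP-preferring receptor, gave 12.12, 11.76 and 11.65 in that order, well above the background level. The differences from NV were -0.36 and -0.47, and RE and RS differed by -0.11. Ligand and receptor had the same sign in both comparisons with NV, and their sizes were not ranked because the restrained values of the ligand are in the background range.

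**Figure D2:**
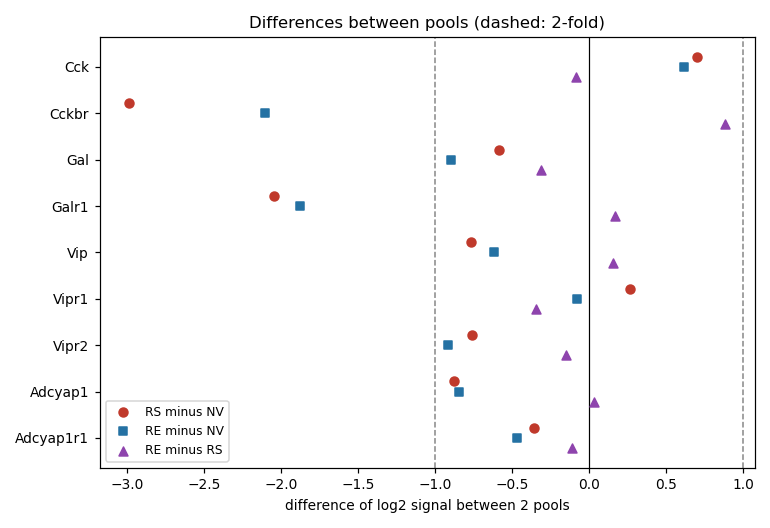
Difference of log2 signal (horizontal axis) for each of the 9 genes in RS minus NV (circles), RE minus NV (squares) and RE minus RS (triangles), with dashed lines at 2-fold. Only Cckbr and Galr1 lie beyond a dashed line, both below NV, and Cckbr has the largest RE minus RS value of the 9, at 0.88.

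Of the 9 genes, 4 were above the background level in all 3 pools (Cck, Cckbr, Vip and Adcyap1r1), 4 in 1 pool (Galr1, Vipr2 and Adcyap1 in NV, Vipr1 in RS) and Gal in none. A gene that is above the level in NV alone has to be lower in the other pools, so no count over the genes that passed is used here. In RS minus NV the median was -0.68 over the 4 ligands and -0.76 over the 5 receptors, with Cck (0.70) and Vipr1 (0.27) positive. The receptor median is the value of Vipr2, and the ligand median lies between Gal and Vip. Since Gal and the RS value of Vipr2 are in the background range, the medians were not ranked against each other. In RE minus RS the medians were -0.03 and -0.11, against -0.07 over all genes.

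**Figure D3:**
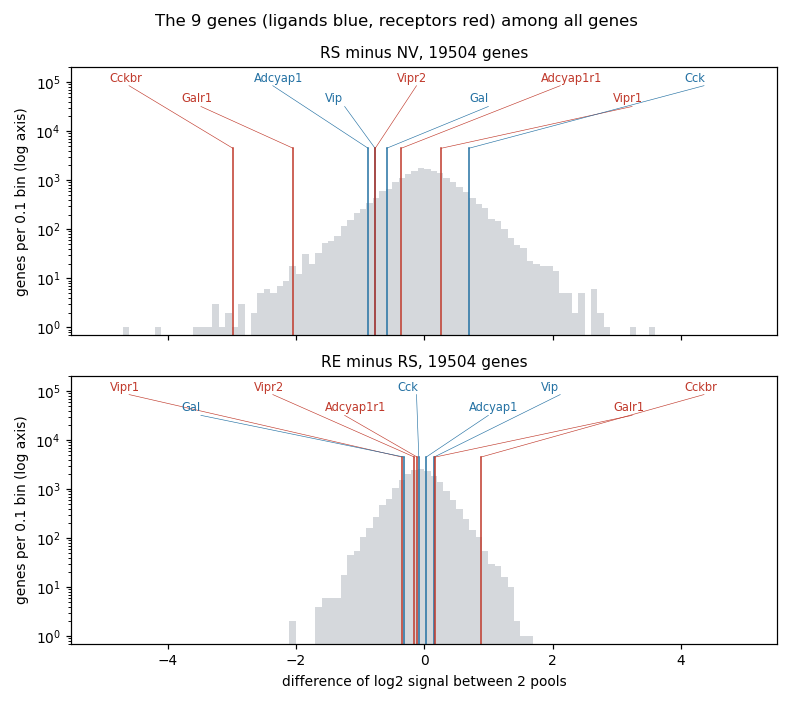
Number of genes per 0.1 bin of the log2 difference (vertical log axis) for RS minus NV (top) and RE minus RS (bottom) over 19504 genes, with the 4 ligands as blue lines and the 5 receptors as red lines. Cckbr and Galr1 lie in the lower tail of RS minus NV, Cckbr lies in the upper tail of RE minus RS, and the other lines fall in the body of both histograms.

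The genes nearest to Cckbr and Galr1 in their pattern over the 3 pools were found by the Euclidean distance of the pair RS minus NV and RE minus NV, among 11942 genes above the background level in at least 1 pool. For Cckbr these were Olfr32, annotated as an olfactory receptor (distance 0.15), Arhgap6 (0.19), and Coch, which encodes cochlin (0.39). Coch is also in the list of ventral hippocampus markers described below. Arhgap6 had log2 signals of 9.33 (NV), 6.50 (RS) and 7.12 (RE). Olfr32, one of the chemosensory receptor genes behind the background level, had 7.75, 4.89 and 5.74 in the same order, and Coch 7.63, 5.03 and 5.42. The RS and RE values of Olfr32 and Coch were below that level. For Galr1 they were Hpcal1, a neuronal calcium sensor (0.05), Ecel1, a metallopeptidase-like gene (0.06), and Plppr3, a phospholipid phosphatase-related gene (0.08). Hpcal1 had 13.70 (NV), 11.71 (RS) and 11.81 (RE). These genes were picked for their likeness to Cckbr and Galr1, so they are a description and say nothing further about either member.

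Relatives of these ligands and receptors, other members of the secretin, gastrin and galanin families with their receptors and accessory proteins, showed no 2-fold difference between RS and NV. Of 19 listed, 17 were measured and 5 were above the background level in at least 1 pool, and Cckar and Galr3 are not analysed here. In RS minus NV their median was 0.04, with 0 of 17 higher and 0 lower, and in RE minus RS it was -0.06, with 0 and 0. In RE minus NV 1 was lower, Spx, which encodes spexin, a ligand of galanin receptors, with -1.33 and all 3 values below the background level. Glp1r, the receptor of glucagon-like peptide, had 6.68 (NV), 7.21 (RS) and 7.15 (RE). Ramp1, a receptor activity-modifying protein, had 12.24, 11.84 and 11.55 in the same order.

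No gene for making or breaking down neuropeptides passed 2-fold, where 7.80% of all genes did so in RS minus NV, so that counts of 0 in lists this short are close to the background. Of 17 genes for precursor processing and dense core vesicles, 0 passed 2-fold in any comparison, with medians of -0.08 in RS minus NV and 0.04 in RE minus RS. The widest differences in RS minus NV were -0.94 for Vgf, a granin-like secretory protein, and -0.74 for Cpe, the carboxypeptidase that trims cut peptides. Pcsk1, a convertase that cuts precursors, had 8.91 (NV), 8.41 (RS) and 8.99 (RE). Of 5 peptidase genes, 0 passed the threshold, and Dpp4, which can cleave several of these peptides, had -0.84 at values below the background level.

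Downstream of the receptors, 1 phospholipase C gene was lower, and 3 potassium channel genes and 1 adenylyl cyclase gene were higher, in RS than in NV. Over all genes, 4.29% were lower and 3.52% higher in that comparison, so a count of 1 in lists this short is close to the background. The 3 channel genes come from a list of 8 and their count was not tested. Of 10 Gq and calcium genes, Plcb4, a phospholipase C below Gq, was lower, with 10.70 (NV), 8.17 (RS) and 8.70 (RE), and 0 were higher. The study singled out Plcb4 on these same arrays, so its direction is not independent evidence. The median of that list was 0.31, and Gnaq, which encodes the Gq subunit, had 0.57. Of 21 Gs and cAMP genes, Adcy1, a calcium-activated adenylyl cyclase, was higher, with 10.81 (NV), 12.29 (RS) and 12.16 (RE), and 0 were lower. The differences of the other cyclase genes lay on both sides of 0, among them Adcy2 with 0.92, Adcy9 with 0.84, Adcy5 with -0.49, Adcy8 with -0.65 and Adcy6 with -0.997, just short of the threshold, and the median of the list was -0.08. Of 8 genes for Gi, Go and inward rectifier channels, which Galr1 uses, 3 were higher and 0 lower. These were the channel genes Kcnj6 with 2.27, Kcnj3 with 1.24 and Kcnj9 with 1.03. Of 5 genes for receptor desensitization 0 passed the threshold. Between RE and RS, 0 genes of these 4 lists did, where 1.16% of all genes passed it.

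**Figure D4:**
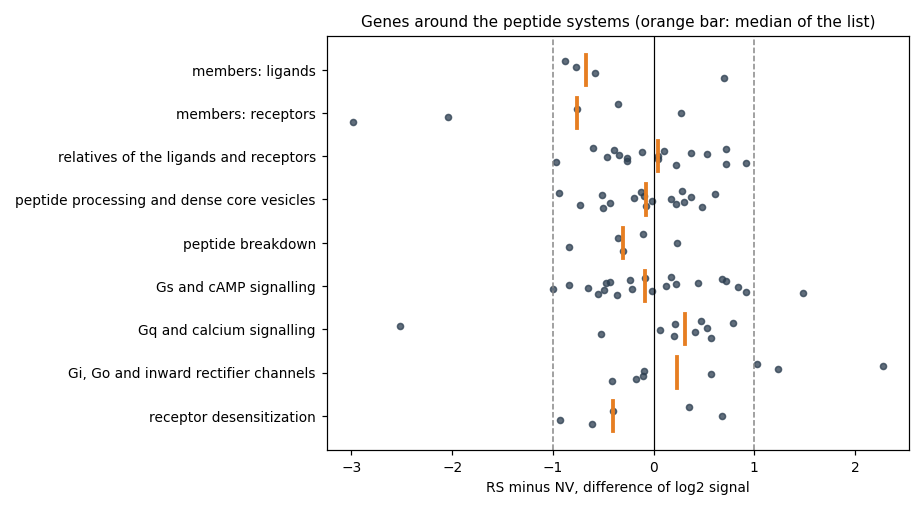
RS minus NV difference of log2 signal (horizontal axis) for each measured gene of the 9 lists around the peptide systems, 1 point per gene, with the median of each list as an orange bar and dashed lines at 2-fold. Cckbr at -2.98 is the most negative point and Kcnj6 at 2.27 the most positive.

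Markers of cells and regions differed between the same pools. Of 9 ventral hippocampus markers, 7 were lower in RS than in NV and 0 higher, with a median of -2.17, and the log2 of their summed signal was 16.18 (NV), 14.59 (RS) and 15.41 (RE). In RE minus RS, 3 of the 9 were higher (Trhr with 1.21, Nr2f2 with 1.15 and Dcn with 1.06), with a median of 0.81, beside the 0.88 of Cckbr. Trhr is a gene the study selected on these arrays for its RE value. Of 12 thalamus and habenula markers, 6 were lower in RS than in NV and 0 higher, among them Tcf7l2 with -4.68 and Slc17a6 with -3.30, and the summed signal was 14.38 (NV), 11.87 (RS) and 12.28 (RE). Of 11 midbrain and brainstem markers, 2 were lower, Tfap2d with -3.45 and Tfap2b with -3.23, and 1 was higher, Dbh with 1.48 at values below the background level, while Th, Slc6a3 and Slc6a4 were below it in every pool. Dentate granule cell markers went the other way, with a median of 2.66, 7 of 10 higher and 0 lower, and summed signals of 13.79, 14.82 and 14.54. The part of these markers in the Cckbr and Galr1 differences was not tested.

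Markers of the cells that make the ligands were set beside Cck and Vip. Of 12 pyramidal cell markers, 4 were higher in RS than in NV and 0 lower (Spink8 with 2.43 and Neurod6 with 2.45 led). Their differences ran from -0.22 to 2.45, with a median of 0.71 beside the 0.70 of Cck. Their summed signals were 14.32 (NV), 15.98 (RS) and 15.69 (RE). Of 5 markers of CCK interneurons, 1 was higher, Slc17a8 with 1.08 at values below the background level, and 1 was lower, Htr3a with -1.05. The median of these 5 was -0.0004, the value of Npas1, which was below the background level in every pool. Cnr1, the cannabinoid receptor of CCK basket cells, was at 13.84 (NV), 13.73 (RS) and 13.81 (RE), and the summed signal of the list was 13.92, 13.87 and 13.91. Of 6 markers of VIP interneurons, 3 were lower in RS than in NV, Calb2 with -1.94, Htr3a with -1.05 and Crh with -1.01, and 0 were higher. The RS value of Crh, 5.56, was below the background level. Adarb2 differed the other way, with 0.98, just short of the threshold, and Tac2 (-0.51) and Npas1 were below the background level in every pool. The median of the 6 markers was -0.76, beside the -0.77 of Vip. It lies between Crh and Tac2, so it rests partly on values in the background range. The summed signal of the list was 11.82 (NV), 11.00 (RS) and 11.32 (RE). Htr3a, Adarb2 and Npas1 are also in the list of CCK interneurons. Calb2 also marks other cells and is in the lists of mossy cells and of thalamus and habenula. Gad2 with -1.57 and Slc32a1 with -1.42 were lower by 2-fold or more among 8 general markers of inhibitory neurons, of which 0 were higher by that much. The median of the 8 was -0.25. Lhx6 (0.68), Maf (0.13) and Dlx6 (0.47, below the background level in every pool) differed the other way. The part of these cells in the Cck and Vip differences was not tested.

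**Figure D5:**
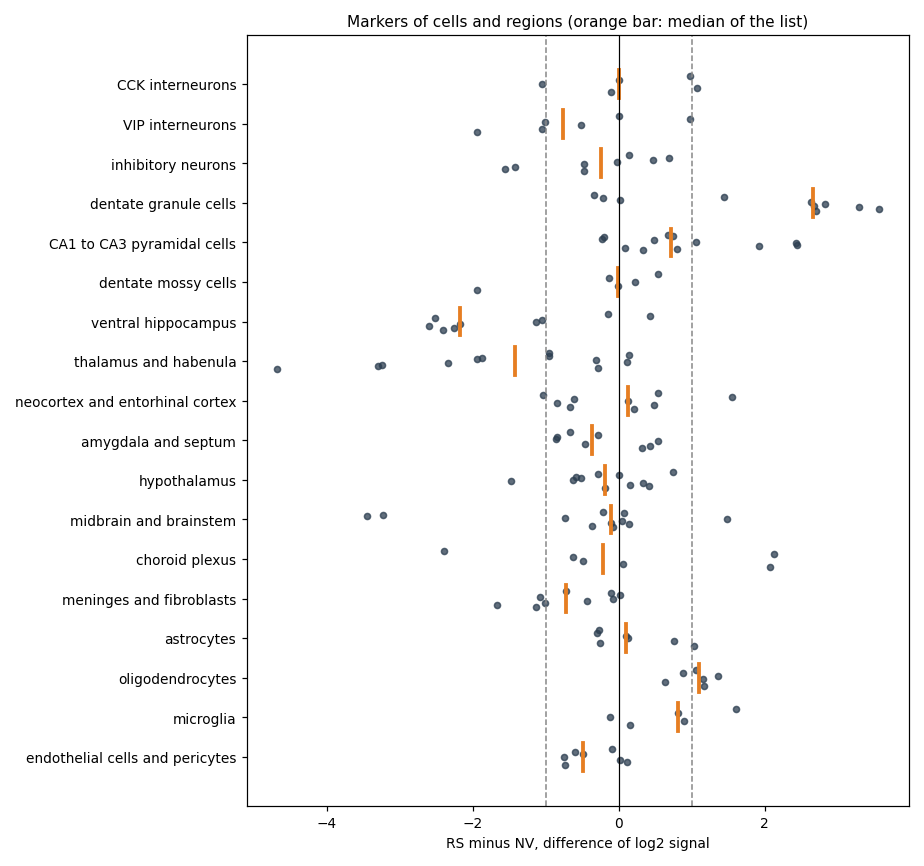
RS minus NV difference of log2 signal (horizontal axis) for each measured marker gene of 18 cell and region lists, 1 point per gene, with list medians as orange bars and dashed lines at 2-fold. Ventral hippocampus (median -2.17) and thalamus and habenula (median -1.42) lie to the left, and dentate granule cells (median 2.66) to the right.

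Among the other lists, oligodendrocyte markers had a median of 1.11 in RS minus NV with 4 of 6 higher, microglia 0.81 with 1 of 5, astrocytes 0.10 with 1 of 7 and endothelial cells and pericytes -0.49 with 0 of 7 past the threshold. Meninges and fibroblasts had -0.72 with 4 of 9 lower, and choroid plexus -0.22 with 2 higher and 1 lower of 6. Hypothalamus had -0.19 with 1 of 11 lower, amygdala and septum -0.37 with 0 of 8, neocortex and entorhinal cortex 0.13 with 1 higher and 1 lower of 9, and mossy cells a median near 0 with 1 of 5 lower.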

How the data were processed

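RNA of 3 hippocampal pools was measured on 1 Affymetrix whole-transcript array each. The authors deposited log2 signals for 22205 probe sets. Affymetrix Power Tools and RMA, with no versions, are named in the submitters' notes, and the methods name the Command Console software. Values lie between 2.71 and 19.9. What took some of them above 16, and whether signals were rescaled before the log, are not given in the sources used here. Symbols came from the platform annotation (19571 probe sets with 1 symbol, 2634 with none here, 0 updated through gene identifiers). Where a gene had several probe sets (55 genes), the one with the highest 3-array mean was kept.

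Differences of log2 values were taken between pools and called at 2-fold. With 1 array per group no test was run, and there is no read depth. The members and lists were chosen with earlier results of these data known. Named genes were all members, list genes past 2-fold (at most 4 per list by size) and the 3 nearest genes in pattern. A few list members below 2-fold were named after their values were seen. The calling step was tested on simulated data. Alternatives were median centring, removal of a lowess trend (span 0.3), the mean of probe sets, a filter at the background level, a 1.5-fold threshold, other background percentiles and, for RS, the average of both restrained pools. Promoters are from RefSeq, for 8 of the 9 genes, all but Galr1. Tables were handled with pandas 2.3.3 and numpy 2.4.6 in python 3.11.15, lowess with statsmodels 0.14.6, and plots with matplotlib 3.10.9. Behavior and vesicle miRNA data were not used here.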

Additional observations from a re-analysis of the deposited data

How the results depend on the processing

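With 1 array per group, no replicate could be left out. No paired analysis was possible because each group has 1 pool. In their measured differences, Cckbr and Galr1 stayed lower than NV by 2-fold or more in both comparisons with NV under every alternative run on them. Cckbr ranged from -3.08 to -2.54 in RS minus NV and Galr1 from -2.04 to -1.96. At a 1.5-fold threshold 6 members passed in RS minus NV, 7 in RE minus NV and 1, Cckbr, in RE minus RS. The share of all genes past 1.5-fold was not computed, so these counts are not read as a result about the members. In both comparisons with NV they include Galr1, Vipr2 and Adcyap1, whose restrained values are in the background range. With the lowess trend removed, the median over the members was 0.11 in RE minus RS, against -0.08 as deposited, and -0.69 in RE minus NV, against -0.85. Below the threshold, the signs of Cck in RE minus RS (0.11 under lowess) and of Vipr1 in RE minus NV (0.08) turned when that trend was removed. At a background level set at the 99th percentile (6.94), 5 members in place of 8 were above it in at least 1 pool. The Galr1 bound of 2.33-fold was not rerun at that level, where it would be under 2-fold, with NV at 7.23. Each member has 1 probe set, so taking the mean of probe sets could change nothing and is not counted. The remaining 18 alternatives for counts and medians, and all 63 for single members, kept their side of the threshold or moved by less than the bounds used. Low signal limits the values of Gal, Vipr1, Vipr2 and Adcyap1 and the restrained values of Galr1.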
